A study of Homo sapiens with 8 samples.

Results

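ELK4 and GABPA are ETS family transcription factors, and this account sets the ELK4 peaks of DU145 prostate cancer cells against the GABPA peaks of the same line. The ELK4 list held 337 peaks out of 24078 in the 7 deposited lists, and all of them were used. The GABPA list held 2478. A peak is an interval in which the DNA recovered with an antibody was called as bound, and the assay was ChIP-seq, in which DNA bound by a factor is precipitated from chromatin and sequenced. Peaks of different lists were counted as meeting when they shared at least 1 bp.

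ETS proteins bind DNA through a winged-helix domain that reads a GGAA core. ELK4 is also a ternary complex factor: it binds beside serum response factor (SRF), which sits on the CArG box, and ERK phosphorylation of such factors is known for switching on immediate-early genes within minutes of a growth stimulus. GABPA pairs with GABPB and is known for binding the promoters of housekeeping genes, among them many for mitochondrial function.

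The ELK4 and GABPA samples were DU145 cells, a line from prostate cancer, each precipitated with its own Santa Cruz antibody. The other lists were ETS1 in DU145 (2 lists of 1 sample), ELF1 and JUND in DU145, and ETS1 in PANC1, a pancreatic cancer line. DU145 cells grew in medium with serum, and the labels allow for puromycin in selected cells without saying whether these were selected. No other treatment or genotype is given, and each factor had 1 sample, so no value here has a replicate check and p-values describe the lists.

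No hg19 annotation was at hand, and the lists carry no gene names. Genes named beside a peak are background from general knowledge of where they lie in hg19. Only the chromosome was checked, which matched a RefSeq table for 14 of 14 genes named among the first 20 ELK4 lines. That of JUNB, named beside later lines, was not checked. Peaks with no name are given by hg19 position alone. The files do not say whether starts count from 0 or 1. They hold no score and no read counts, so depth is unknown.

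Promoter sequences of genes named beside the first 20 lines of the ELK4 file are shown first, for the CArG box and the ETS site some of them hold. They come from RefSeq (GRCh38.p14) and are the 150 bases before a gene start, printed in the gene's own direction. Capitals mark CArG boxes in the promoters of EGR1, EGR2 and MIDEAS, genes named beside ELK4 peaks without GABPA. In those of RIMOC1 and ARHGAP1, genes named beside ELK4 peaks with GABPA, they mark the longer ETS site CCGGAAG, on either strand.
EGR1 (chr5:138465329-138465478, plus strand): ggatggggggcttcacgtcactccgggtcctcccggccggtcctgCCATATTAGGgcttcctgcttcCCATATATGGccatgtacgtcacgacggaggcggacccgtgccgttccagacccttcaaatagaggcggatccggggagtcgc
EGR2 (chr10:62816367-62816516, minus strand): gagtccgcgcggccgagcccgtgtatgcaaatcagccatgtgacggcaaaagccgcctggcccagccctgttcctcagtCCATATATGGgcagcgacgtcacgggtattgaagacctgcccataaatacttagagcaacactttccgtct
MIDEAS (chr14:73760304-73760453, minus strand): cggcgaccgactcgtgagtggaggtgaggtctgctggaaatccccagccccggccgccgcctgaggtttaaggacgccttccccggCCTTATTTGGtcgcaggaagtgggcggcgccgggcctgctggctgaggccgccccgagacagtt
RIMOC1 (chr5:41904194-41904343, plus strand): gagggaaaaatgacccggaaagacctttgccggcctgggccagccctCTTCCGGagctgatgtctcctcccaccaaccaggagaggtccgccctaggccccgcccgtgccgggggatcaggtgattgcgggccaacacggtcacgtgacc
ARHGAP1 (chr11:46700620-46700769, minus strand): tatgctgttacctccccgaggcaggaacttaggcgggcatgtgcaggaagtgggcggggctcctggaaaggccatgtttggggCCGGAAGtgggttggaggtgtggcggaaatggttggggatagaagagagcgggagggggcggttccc

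In EGR1 the CArG boxes began 105 and 83 bases before the start, with TTCC, the GGAA core on the other strand, between them. The box of EGR2 began 71 bases before its start and that of MIDEAS 64 bases before. RefSeq lists 3 starts for EGR2 and 2 for MIDEAS, and the starts shown were picked because they hold a CArG box; which start lies nearest the ELK4 peak cannot be read across the builds. The longer ETS site began 103 bases before the start of RIMOC1 and 67 before that of ARHGAP1.

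The search covered both strands of 250 bases before each listed start of 12 of the 14 genes named among the first 20 lines. EGR3 and MCL1 had no promoter to search. MCL1 lay beside a peak with GABPA, so the counts for that class leave it out. Counted per start, as in the whole table, the CArG box was found at 0 of 4 starts of genes beside ELK4 peaks with GABPA and at 3 of 12 starts of the 8 genes beside peaks without it, and it was present in 1.16% of all 35116 promoters of the table. CCGGAAG was found at 3 of the 4 starts and at 1 of the 12, that of IER2, with 8.52% of all promoters holding it. The other 2 with a match, beside RIMOC1, were ARHGAP1 and ZNF408, whose windows overlap. GGAA, which every CCGGAAG contains, was found at all 4 and all 12 starts and in 92.7% of all promoters. Boxes and sites farther than 250 bases before a start were not searched for. A gene with no match in the window, such as FOS for the CArG box, may hold one farther out. These counts describe a handful of genes and carry no test.

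The first 10 lines of the ELK4 file met no GABPA peak. Of the first 10 peaks, 6 lay at or beside EGR1, EGR2, EGR3 or FOS, immediate-early genes known as targets of SRF and its partners. EGR1 and FOS each had a pair of these peaks. Apart from JUNB, genes were named only among the first 20 lines, so the share of such loci over all ELK4 peaks is unknown. A DU145 ETS1 list was met by 7 of the 10 (70.0%), beside 84.3% of all ELK4 peaks, so ETS1 was not more frequent there. Line 1, chr5:137800557-137801057, lay just upstream of EGR1, a zinc finger transcription factor induced by growth signals. It met both ETS1 lists, at line 1640 of the first and line 2501 of the second. Line 3, chr5:137827519-137828020, lay downstream of the same gene, 26462 bp from the end of line 1, and met no other list.

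Lines 10 and 2 formed a second such pair at FOS, a subunit of AP-1. Line 10, chr14:75744993-75745492, lay at the gene start and line 2, chr14:75760672-75761166, lay 15180 bp farther on. Both met both ETS1 lists, line 10 at lines 2921 and 2221, and line 2 near their ends, at lines 9899 and 9269. At each gene a pair of ELK4 peaks stood among the first 10 lines, and neither pair met GABPA, ELF1 or JUND. Over all ELK4 peaks these lists were met by 50.4%, 7.42% and 5.93%, so the lack of ELF1 and JUND sets these peaks apart from few others.

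The paralogues of EGR1 were early in the file as well. Line 4, chr10:64576224-64576724, lay at a start of EGR2, and line 6, chr8:22552618-22553117, lay upstream of EGR3. Neither met any other list. The nearest GABPA centre was 12119 bp away from the EGR2 peak and 26169 bp from the EGR3 peak, and the nearest centre of the second ETS1 list 12066 and 90821 bp.

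The remaining lines of the first 10 were more mixed. Line 5, chr17:43394468-43394967, lay at the start of MAP3K14, a kinase of the noncanonical NF-kappaB pathway, and met the first ETS1 list alone. Line 7, chr14:74226854-74227355, lay inside MIDEAS, a subunit of a histone deacetylase complex, and met both ETS1 lists and JUND. Line 8, chr21:34752854-34753355, met both ETS1 lists. Line 9, chr21:9825678-9826179, met line 87 of the first ETS1 list and line 1 of the ELF1 list.

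GABPA first appeared at line 11, chr11:76758550-76759037, which met a late GABPA line, 2467 of 2478, and no ETS1 list. Of the first 20 lines, 5 met GABPA (95% Clopper-Pearson interval of the share 8.66 to 49.1%). The others with GABPA lay at MCL1, an inhibitor of apoptosis (line 13), at RIMOC1, a gene linked to RAB7A in mitophagy (line 15), at RAB11B, a GTPase of endosome recycling (line 18), and between ZNF408 and ARHGAP1 (line 20). ARHGAP1 is a GTPase activator for CDC42. All 4 of these also met both ETS1 lists, MCL1 also met ETS1 in PANC1, and RAB11B also met ELF1. MCL1 was on the planned list of SRF and ternary complex factor targets, as were EGR1, EGR2, EGR3, FOS, NR4A1 and IER2. Among the first 20 lines, MCL1 thus stood with GABPA and the other targets named here without it. The count over the whole planned list, which also holds JUNB, was not run, so these genes do not stand for the list.

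Among lines 11 to 20, the peaks at NR4A1, NR4A3 and IER2 lacked GABPA, as those of the EGR genes and FOS did. Line 12, chr12:52444870-52445369, lay at a start of NR4A1 and line 16, chr9:102582016-102582512, upstream of NR4A3. Both genes encode orphan nuclear receptors, and both peaks met both ETS1 lists. Line 17, chr19:13262516-13263016, lay at IER2, an immediate-early gene, and met the first ETS1 list alone. A GABPA centre lay only 1608 bp from this IER2 peak, so GABPA was close by without meeting it. For the NR4A1 and NR4A3 peaks the nearest GABPA centre was 18571 and 278970 bp away. Line 14, chr7:130756689-130757182, met no list, and line 19, chr1:11967632-11968118, met both ETS1 lists, JUND and ETS1 in PANC1.

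**Figure D1:**
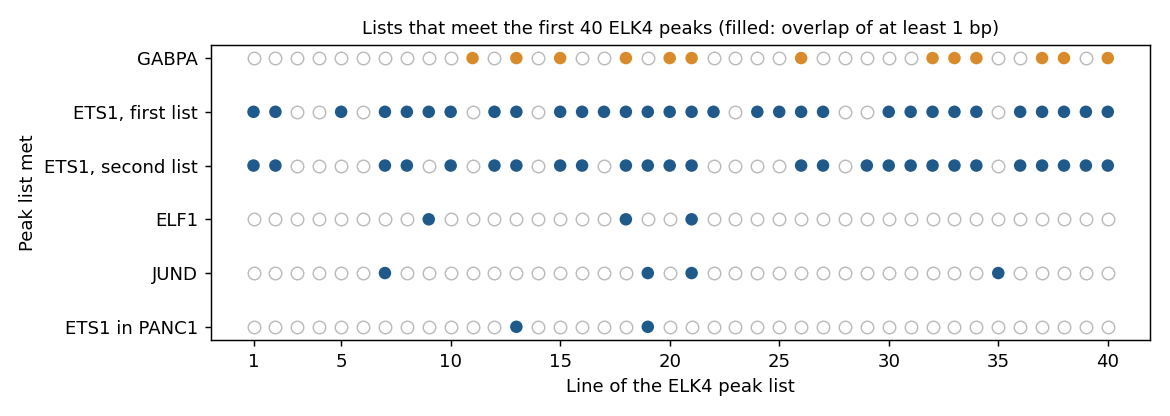
Each column is a line of the ELK4 peak list, 1 to 40, and each row another peak list; a filled point marks an overlap of at least 1 bp and an open point none. The GABPA row is open for the first 10 lines, while 50.4% of all ELK4 peaks met GABPA. The rows of the ETS1 lists are filled for 7 and 5 of those 10 lines, beside 82.5% and 73.3% over all ELK4 peaks.

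Over the whole file, 170 of 337 ELK4 peaks met a GABPA peak, a share of 50.4% (95% Clopper-Pearson interval 45.0 to 55.9%, counting error only). Among all 9306 peaks of the second DU145 ETS1 list, which are windows of the same width, 24.6% met GABPA. That list is far longer, and GABPA stood mostly in its earlier lines, at a median line of 2352.5 for GABPA peaks without ELK4. These shares are not matched for list length, so they do not show that ELK4 met GABPA more often than ETS1 did. In the other direction the same sites were 6.86% of the GABPA list (5.90 to 7.93%, 170 of 2478), beside 2.65% of the second ETS1 list that met ELK4. Each ELK4 peak of this class met a GABPA peak of its own, so the count is 170 on both sides.

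The share with GABPA was lowest at the top of the ELK4 file. It was 32.9% in lines 1 to 85 (23.1 to 44.0%), 57.1% in lines 86 to 169, 57.1% in lines 170 to 253 and 54.8% in lines 254 to 337 (43.5 to 65.7%). The comparison of the earlier and later lines up to and after the midpoint did not pass the threshold, with 45.2% (76 of 168) in the earlier and 55.6% (94 of 169) in the later lines (odds ratio 0.660, 0.419 to 1.04, adjusted p = 0.183 over 37 tests, two-sided exact test of Fisher). The sources used here do not say what the line order stands for.

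Peaks that met no other list were also most frequent in lines 1 to 85, at 21.2% (13.1 to 31.4%), against 10.7%, 5.95% and 16.7% in the following groups of lines. A DU145 ETS1 list was met by 74.1% of lines 1 to 85, and by 88.1%, 91.7% and 83.3% of the later groups. The intervals of neighbouring groups overlap for both measures, and no test was made of them.

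**Figure D2:**
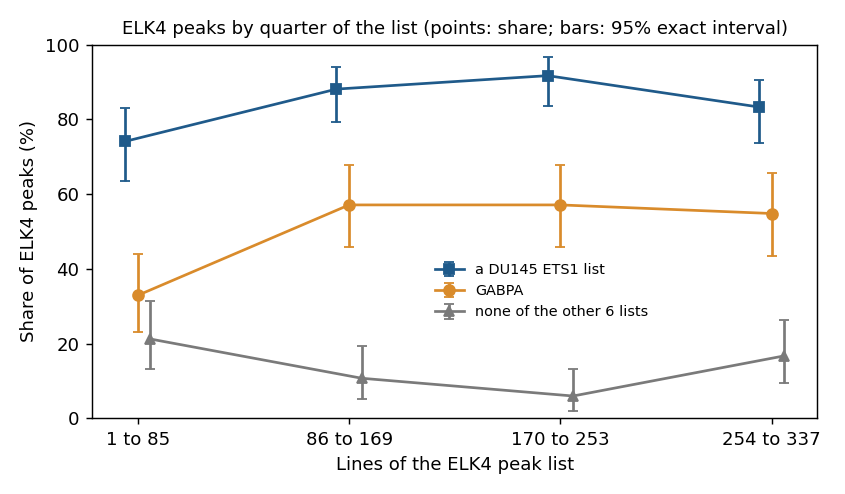
The horizontal axis gives 4 groups of ELK4 lines and the vertical axis the share of ELK4 peaks in percent that met a DU145 ETS1 list (squares), GABPA (circles) or none of the other 6 lists (triangles), with 95% Clopper-Pearson intervals. The GABPA share is 32.9% in the first group and between 54.8% and 57.1% in the others.

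The ELK4 peaks fell into 3 classes. The 170 with GABPA nearly all met ETS1 too: 98.2% (94.9 to 99.6%, 167 of 170) met at least 1 DU145 ETS1 list, close to the 97.3% of all GABPA peaks that did so. A second class of 117 peaks, 34.7% of the list (29.6 to 40.1%), met ETS1 and no GABPA. The third class of 50 peaks met neither. Together with 3 peaks that met GABPA alone, they make 53 ELK4 peaks, 15.7%, in neither DU145 ETS1 list. This share depended on the rule of overlap, and was 32.0% with peak centres within 200 bp and 26.7% with the second ETS1 list alone. The first ETS1 list has wider intervals, with a median of 1173 bp, than the windows of the second, at 497 bp. Those 3 were lines 11, 112 (chr9:130980803-130981302) and 176 (chr16:72698830-72699322).

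Both ETS1 lists were met by 94.1% of ELK4 peaks with GABPA (89.4 to 97.1%, 160 of 170) and by 48.5% of those without (40.7 to 56.3%, 81 of 167). The difference was past the threshold (odds ratio 16.8, 8.17 to 38.4, adjusted p = 9.45e-21, two-sided exact test of Fisher). GABPA peaks without ELK4 met both lists in 90.4% of cases (89.2 to 91.6%, 2087 of 2308). Against these, the odds for ELK4 peaks without GABPA were lower (odds ratio 0.0999, 0.0705 to 0.141, adjusted p = 1.35e-36, exact test). GABPA peaks with and without ELK4, at 94.1% and 90.4%, did not differ past the threshold (odds ratio 1.69, 0.880 to 3.65, adjusted p = 0.286, exact test).

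The ETS1 peaks that ELK4 met also stood at different places in the ETS1 file. ELK4 peaks with GABPA met the second ETS1 list at a median line of 1600.0 (quartiles 713.0 and 2736.0, n = 161 of 9306 lines), and those without GABPA at 4217.5 (2421.0 and 6281.5, n = 86). GABPA peaks without ELK4 met it at a median line of 2352.5 (1180.8 and 4072.8, n = 2124). In the first list the medians were 1588.0 with GABPA and 4133.0 without. These are descriptions of line order and carry no test. Within the GABPA list, ELK4 was met by 9.68% of the first 620 lines (7.47 to 12.3%), 6.30% of the next 619, 4.52% of the next 620 and 6.95% of the last 619 (5.07 to 9.24%).

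**Figure D3:**
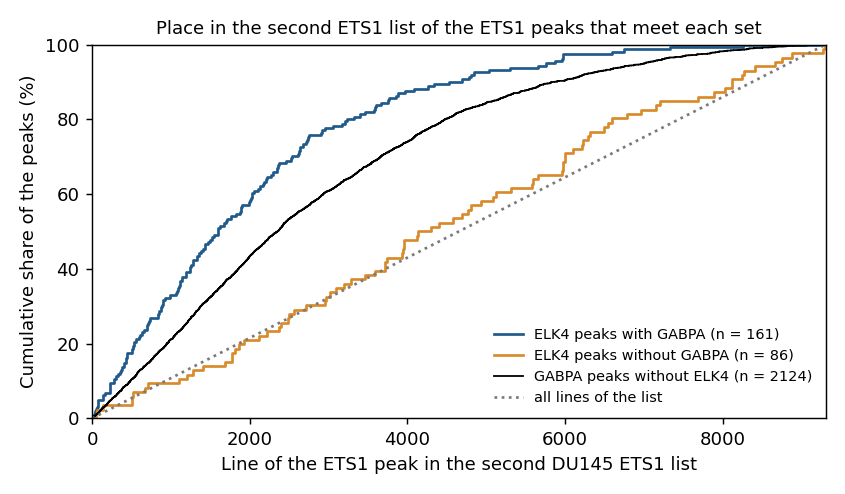
The horizontal axis is the line of the ETS1 peak in the second DU145 ETS1 list and the vertical axis the cumulative share in percent of ELK4 peaks with GABPA, ELK4 peaks without GABPA and GABPA peaks without ELK4; the dotted diagonal stands for all lines. The curve of ELK4 peaks with GABPA rises first (median line 1600.0), while that of ELK4 peaks without GABPA stays near the diagonal (median 4217.5).

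Where ELK4 and GABPA peaks met, their centres were close. The median distance was 64.5 bp (quartiles 23.6 and 145 bp, largest 482 bp, n = 170), and 63.5% of pairs lay within 100 bp. Distances to the second ETS1 list were similar at these sites, with a median of 68.0 bp (n = 161). At ELK4 peaks without GABPA the ETS1 centre was at a median of 102 bp (quartiles 35.2 and 220 bp, n = 86). For GABPA peaks without ELK4 the distance to ETS1 had a median of 70.5 bp (n = 2124). All 4 sets are cut at about 500 bp by the width of the windows, whose medians were 495 bp for ELK4 and 497 bp for GABPA.

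**Figure D4:**
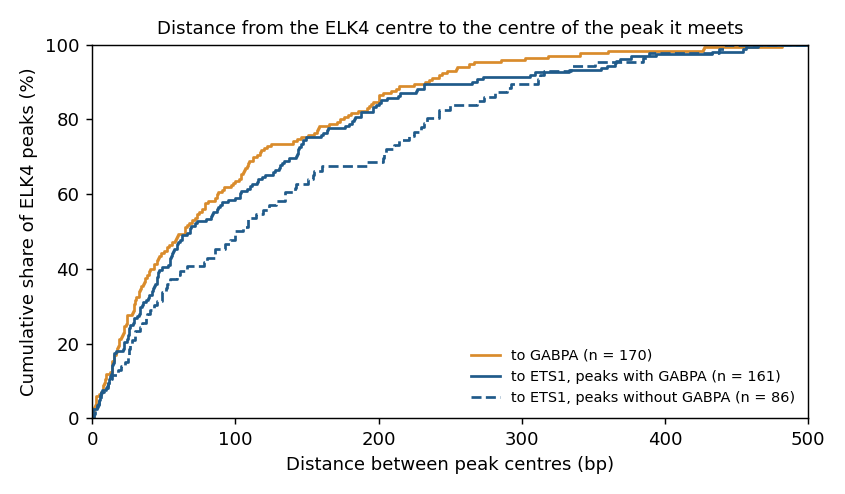
The horizontal axis is the distance in bp between the centre of an ELK4 peak and that of the GABPA or second-list ETS1 peak it meets, and the vertical axis the cumulative share of ELK4 peaks in percent. The medians are 64.5 bp to GABPA, 68.0 bp to ETS1 with GABPA present and 102 bp to ETS1 without it.

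Few ELK4 peaks without GABPA had a GABPA centre close by. The class rule itself leaves out centres nearer than about 500 bp, the width of the windows, and no other set of peaks was measured for comparison. In the class with ETS1 and no GABPA, 2 of 117 ELK4 centres lay within 1 kb of a GABPA centre and 32 within 50 kb, and the median distance was 97.9 kb. In the class with neither, 0 of 50 lay within 5 kb of one and 12 within 50 kb. The nearest ETS1 centre of the second list lay at a median of 33.1 kb from these 50 peaks, and 4 of them had one within 5 kb. The first lines of this class were 3, 4, 6, 14 and 23, the last of them at chr1:26962960-26963455.

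ELF1, another ETS factor, was more frequent at ELK4 peaks with GABPA than at those without. It was met by 12.4% of ELK4 peaks with GABPA (7.81 to 18.3%, 21 of 170) and 2.40% of those without (0.656 to 6.02%, 4 of 167), a difference past the threshold (odds ratio 5.72, 1.87 to 23.4, adjusted p = 0.00437, two-sided exact test of Fisher). Seen from GABPA, ELF1 was met by 12.9% of GABPA peaks with ELK4 (22 of 170) and by 4.81% of those without (111 of 2308; odds ratio 2.94, 1.72 to 4.84, adjusted p = 0.000586, exact test). Between ELK4 peaks without GABPA and GABPA peaks without ELK4 the test was not past the threshold (2.40% and 4.81%, odds ratio 0.486, 0.128 to 1.30, adjusted p = 0.377, exact test). The 4 ELK4 peaks with ELF1 and no GABPA were lines 9, 134, 218 and 270.

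No difference in the GABPA share was detected between ELK4 and ELF1. Leaving out the sites they share, 47.8% of ELK4 peaks (42.1 to 53.5%, 149 of 312) and 48.5% of ELF1 peaks (41.9 to 55.1%, 112 of 231) met GABPA. The odds ratio of 0.971 had an interval of 0.681 to 1.39 (adjusted p = 0.984, exact test), which still allows a difference in either direction.

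JUND, an AP-1 subunit, met few ELK4 peaks. It met 7.19% of ELK4 peaks without GABPA (3.77 to 12.2%, 12 of 167) and 2.21% of GABPA peaks without ELK4 (1.65 to 2.90%, 51 of 2308), a difference past the threshold (odds ratio 3.42, 1.63 to 6.68, adjusted p = 0.00477, two-sided exact test of Fisher). It was no longer past it with peak centres within 200 bp (odds ratio 2.07, adjusted p = 0.318, exact test) or with the earlier ELK4 lines alone (3.09, adjusted p = 0.0798), and the adjusted p ranged from 0.000586 to 0.318 over the alternatives. JUND intervals are wider than the ELK4 and GABPA windows, with a median of 696 bp. GABPA peaks with ELK4 met JUND in 5.29% of cases (9 of 170), against 2.21% of those without (odds ratio 2.47, 1.05 to 5.19, adjusted p = 0.0790, exact test), which was past the threshold only with the earlier ELK4 lines (4.49, adjusted p = 0.0121). Among ELK4 peaks themselves, JUND met 4.71% of those with GABPA (8 of 170) and 7.19% of those without (odds ratio 0.639, 0.220 to 1.75, adjusted p = 0.563, exact test).

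ETS1 in PANC1 met 5.29% of ELK4 peaks with GABPA (2.45 to 9.81%, 9 of 170), 4.19% of those without (1.70 to 8.45%, 7 of 167) and 2.30% of GABPA peaks without ELK4 (53 of 2308). Neither test passed the threshold. The odds ratio was 1.28 (0.412 to 4.14, adjusted p = 0.984, exact test) between ELK4 peaks with and without GABPA. It was 1.86 (0.702 to 4.20, adjusted p = 0.282, exact test) between ELK4 peaks without GABPA and GABPA peaks without ELK4. Sites in several lists enter several of these tests, so the tests are not independent.

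**Figure D5:**
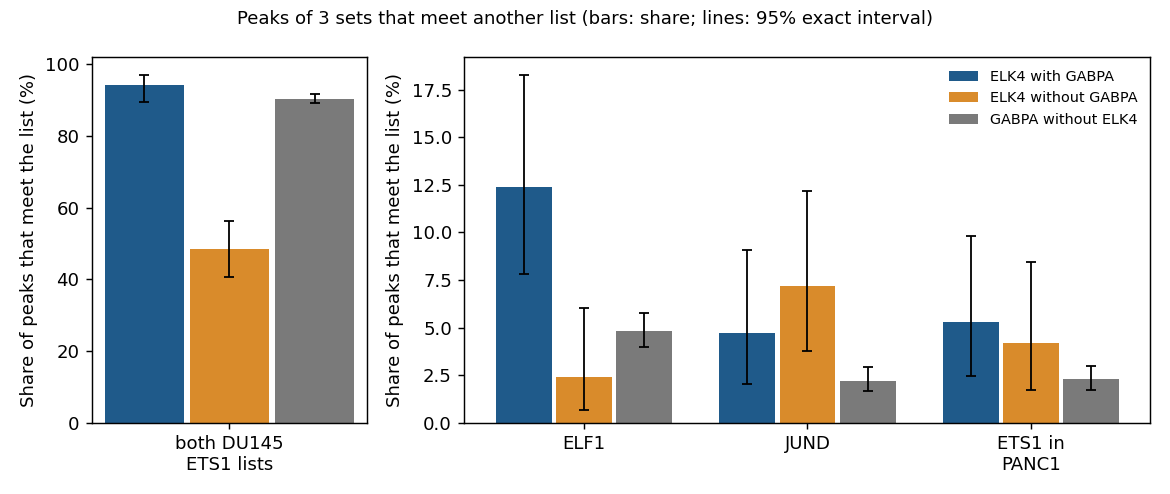
Bars give the share of peaks in percent that met both DU145 ETS1 lists (left panel) or ELF1, JUND or PANC1 ETS1 (right panel, own axis) for ELK4 peaks with GABPA, ELK4 peaks without GABPA and GABPA peaks without ELK4, with 95% Clopper-Pearson intervals. ELK4 peaks without GABPA are lowest for both ETS1 lists (48.5%) and for ELF1 (2.40%), where their interval overlaps that of GABPA peaks without ELK4.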

How the data were processed

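The deposited files are peak intervals (chromosome, start and end) with no score, signal or count; the labels give hg19 as build. Bowtie2 2.0.6 appears, with no role, per the submitters' processing notes. The sources used here do not give the peak caller, its threshold or the use of the inputs, and those inputs were not analysed here. The 2 DU145 ETS1 lists belong to 1 sample.

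Overlaps were computed with Python 3.11.15, SciPy 1.17.1 and NumPy 2.4.6 and drawn in Matplotlib 3.10.9. Shares carry 95% Clopper-Pearson intervals. Sets that share no peak were compared by the two-sided exact test of Fisher, which gives a conditional odds ratio. The p-values were adjusted by Benjamini-Hochberg over 37 tests, 13 of overlaps and 24 of chromosomes, at a threshold of 0.05. Of the 13, 4 were chosen after seeing the data, as were the chromosome tests. Steps were tested on simulated data.

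Named loci are those of the first 20 ELK4 lines and the first 5 of each class; peaks outside this rule were chosen after their values were seen. Members, lists and classes were chosen with earlier results of these data known. Planned tests of motifs and gene starts at peaks, and counts over gene lists, were not run, since they need an hg19 genome and annotation.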

Additional observations from a re-analysis of the deposited data

How the results depend on the processing

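The 17 results (4 shares and 13 tests) were recomputed under 4 other rules of overlap, and 16 of them with the earlier ELK4 lines alone. The 5 that rest on the DU145 ETS1 lists were recomputed with either list alone, and the comparison of earlier and later lines without the first 20 lines, a setting chosen after seeing the data. Of 95 values, 80 kept their direction and side of the threshold or stayed within their interval. With peak centres within 200 bp, 43.3% of ELK4 peaks met GABPA, 5.89% of GABPA peaks met ELK4, 29.4% of ELK4 peaks met ETS1 without GABPA and 32.0% lay in neither ETS1 list. The last share was 21.1% with 500 bp around each centre and 26.7% with the second ETS1 list alone, where the class with ETS1 and no GABPA was 25.5%. With the earlier ELK4 lines, 3.07% of GABPA peaks met ELK4, as fewer ELK4 peaks enter. The JUND odds ratio of ELK4 peaks without GABPA against GABPA peaks without ELK4 was 2.07 by centres and 3.09 with the earlier lines, both no longer past the threshold. The PANC1 odds ratio of the same sets turned to 0.329 with 50% of the shorter interval, 0.675 by centres and 0.452 with the earlier lines. With those lines the JUND odds ratio of ELK4 peaks with against without GABPA turned to 1.23, and that of GABPA peaks with against without ELK4 was 4.49, past the threshold. Without the first 20 lines, the odds ratio of earlier against later ELK4 lines for GABPA was 0.694. The causes were not tested. Depth is unknown, so a peak missing from a list may lie under its caller's threshold. No paired analysis was possible because each factor has 1 sample.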

Other observations

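The share of ELK4 peaks on each chromosome was compared with that of GABPA peaks without ELK4, a choice made after seeing the data, and 2 of 24 chromosomes passed the threshold. Chromosome 14 held 8.31% of ELK4 peaks (5.59 to 11.8%, 28 of 337) and 3.29% of GABPA peaks without ELK4 (76 of 2308; odds ratio 2.66, 1.63 to 4.23, adjusted p = 0.000586, two-sided exact test of Fisher). Its ELK4 peaks included both FOS peaks and the MIDEAS peak, which lacked GABPA, and others that met GABPA, such as lines 43 and 58. Chromosome 3 held 1.78% of ELK4 peaks (6 of 337) and 5.55% of GABPA peaks without ELK4 (128 of 2308; odds ratio 0.309, 0.110 to 0.699, adjusted p = 0.0103, exact test).

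Some ELK4 peaks lay near another ELK4 peak. Gaps under 30 kb separated 8 pairs, among them those at EGR1 and FOS. The gap at EGR1, 26462 bp, was the widest of the 8, and line 199 paired with both line 252 and line 241. Such pairs were not counted in the GABPA or ETS1 lists, and no test was made. The 8 pairs therefore do not show that pairing sets ELK4 peaks apart. On chromosome 19, lines 66 (chr19:12900659-12901158) and 22 (chr19:12904201-12904694) lay 3043 bp apart near JUNB, an AP-1 gene named here from general knowledge, and both met ETS1 without GABPA. The closest pair, lines 252 (chr19:39900199-39900696) and 199 (chr19:39902952-39903449), lay 2256 bp apart, and GABPA met line 252 alone of the pair.

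The ELK4 peaks that met ETS1 in both lines and JUND, but not GABPA, were 4, and all lay on chromosome 1, which held 9.50% of all ELK4 peaks (32 of 337). This combination was picked after its values were seen, and it carries no test. How the JUND and PANC1 peaks spread over chromosomes was not counted. They were lines 19 (chr1:11967632-11968118), 245 (chr1:144533640-144534140), 293 (chr1:146556027-146556527) and 310 (chr1:149857912-149858407). Line 21, chrX:77359230-77359721, met GABPA, both ETS1 lists, line 3 of the ELF1 list and line 3 of the JUND list.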
